A study of Mus musculus with 21 samples.

Results

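Ion channels set how a neuron fires, and the genes described here encode its voltage-gated and potassium channels. They were chosen by symbol alone: each counted gene whose symbol begins with Kcn or Cacn, the sodium channel genes written as Scn with a number and an a or b, and the numbered Hcn genes. The rule gave 129 of the 17164 counted genes. Of these, 126 are coding genes in 20 channel classes and 3 are noncoding entries that carry a channel symbol (Kcnd3os, Kcnmb4os1 and Kcnq1ot1).

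RNA was sequenced from cells of C57BL/6 mice that were labelled and sorted as retinal ganglion cells, the output neurons of the eye, 3 days after the optic nerve had been crushed. Each group had received guide RNAs for gene disruption, either a control guide or guides against the stress-response bZIP factors ATF3, ATF4, CEBPG or CHOP, the product of Ddit3. There were 4 control, 5 ATF3, 2 ATF4, 4 CEBPG and 5 CHOP knockout libraries, with 6401446 to 32776378 counted reads each. The source of the nuclease, the vector, the sort gate and the number of animals per library were not given in the sources used here, so p-values measure the spread between libraries, which may be technical. The nerve crush, the strain and an age of 6 to 7 weeks were shared by all these groups, controls included. In the deposited sample sheet the controls are male mice of batch 2. The ATF3, CEBPG and CHOP knockouts are female mice of batch 3, and the ATF4 knockouts are of batch 1, with replicate 1 listed as female although the Y-linked gene Ddx3y stood at 61.5 CPM there. In each comparison with control the knockout therefore cannot be told apart from the batch, nor, except for ATF4, from sex. Comparisons among ATF3, CEBPG and CHOP knockouts stay within 1 batch and 1 sex.

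The labels were checked against targeted genes and cell markers, all in CPM (read counts scaled to the size of each library). Atf3 was at 30.6 to 48.0 CPM in the ATF3 knockouts and 104 to 125 CPM in the controls, Atf4 at 148 to 160 CPM in the ATF4 knockouts and 216 to 387 CPM in the controls, and Ddit3 at 57.4 to 72.6 CPM in the CHOP knockouts and 75.4 to 109 CPM in the controls. Cebpg was at 49.2 to 92.4 CPM in the CEBPG knockouts and 74.6 to 93.6 CPM in the controls and did not pass the test (adjusted p = 0.491), so its transcript does not separate that group. Other knockouts had low values too. Atf4 averaged 154 CPM in ATF4 and 87.9 (ATF3), 130 (CEBPG) and 106 CPM (CHOP) in the others. Atf3 averaged 38.3 CPM in ATF3 and 36.9 (CHOP), 74.5 (CEBPG) and 95.3 CPM (ATF4). Ddit3 averaged 65.5 CPM in CHOP and 61.9 (ATF3), 66.5 (CEBPG) and 114 CPM (ATF4). So none of these transcripts singles out its targeted group among the knockouts. A small edit need not lower a transcript. A list of 15 ganglion cell markers summed to 579 to 763 CPM in the controls, with Rbpms at a mean of 22.9 CPM, and to 724 to 756 (ATF3), 816 to 861 (ATF4), 508 to 701 (CEBPG) and 613 to 751 CPM (CHOP). Pou4f2 and Isl2, both ganglion cell factors, were at 0 in each CEBPG knockout library. Markers of other retinal cells were present in all groups: 14 rod genes summed to 38802 to 61343 CPM in the controls and to 3123 to 9126 CPM over the knockout libraries. Bulk RNA of this kind cannot tell fewer cells of a type from less RNA per cell. CEBPG replicates 6 and 8 stood far apart on the fourth principal component of all libraries.

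Voltage-gated channels open on depolarisation. Sodium channels start the action potential, delayed-rectifier and A-type potassium channels end it and time the next one, and calcium channels turn it into transmitter release and signalling. Inward-rectifier and two-pore potassium channels hold the resting potential, and HCN channels pass a current on hyperpolarisation. Many of the pore-forming proteins need auxiliary subunits to reach the membrane. In the retina several of these genes mark cell types, since rods and cones use their own set of calcium, HCN and potassium channels while spiking ganglion and amacrine cells use the fast sodium and Kv channels.

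Of the 129 channel genes, 124 passed the filter on low counts and were tested. Kcna7, Kcne3, Kcnh3, Kcnmb3 and Scn4b did not pass it. A gene is written as having risen or fallen where the edgeR quasi-likelihood test over all 16797 genes gave a Benjamini-Hochberg adjusted p below 0.05. Against control, 62 channel genes rose and 11 fell in the ATF3 knockouts, where 33.4% of all genes passed, 18.6% upward and 14.8% downward. In the ATF4 knockouts 48 rose and 11 fell, with 31.3% of all genes passing, 16.6% upward and 14.6% downward. In the CEBPG knockouts 45 rose and 15 fell, with 33.4% of all genes passing, 18.3% upward and 15% downward. In the CHOP knockouts 60 rose and 11 fell, with 33.5% of all genes passing, 18.1% upward and 15.4% downward. So 36.3% to 50% of the channel genes tested rose, and their share that fell, 8.87% to 12.1%, lay under that of all genes. The median log2 fold change of the channel genes was 0.93 (ATF3), 0.71 (ATF4), 0.65 (CEBPG) and 1.08 (CHOP), beside 0.06, 0, 0.06 and 0.01 for all genes. These 4 comparisons share the same control libraries. Left out singly, the 4 control and the knockout libraries moved none of these 8 counts by more than 1.5 times.

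**Figure D1:**
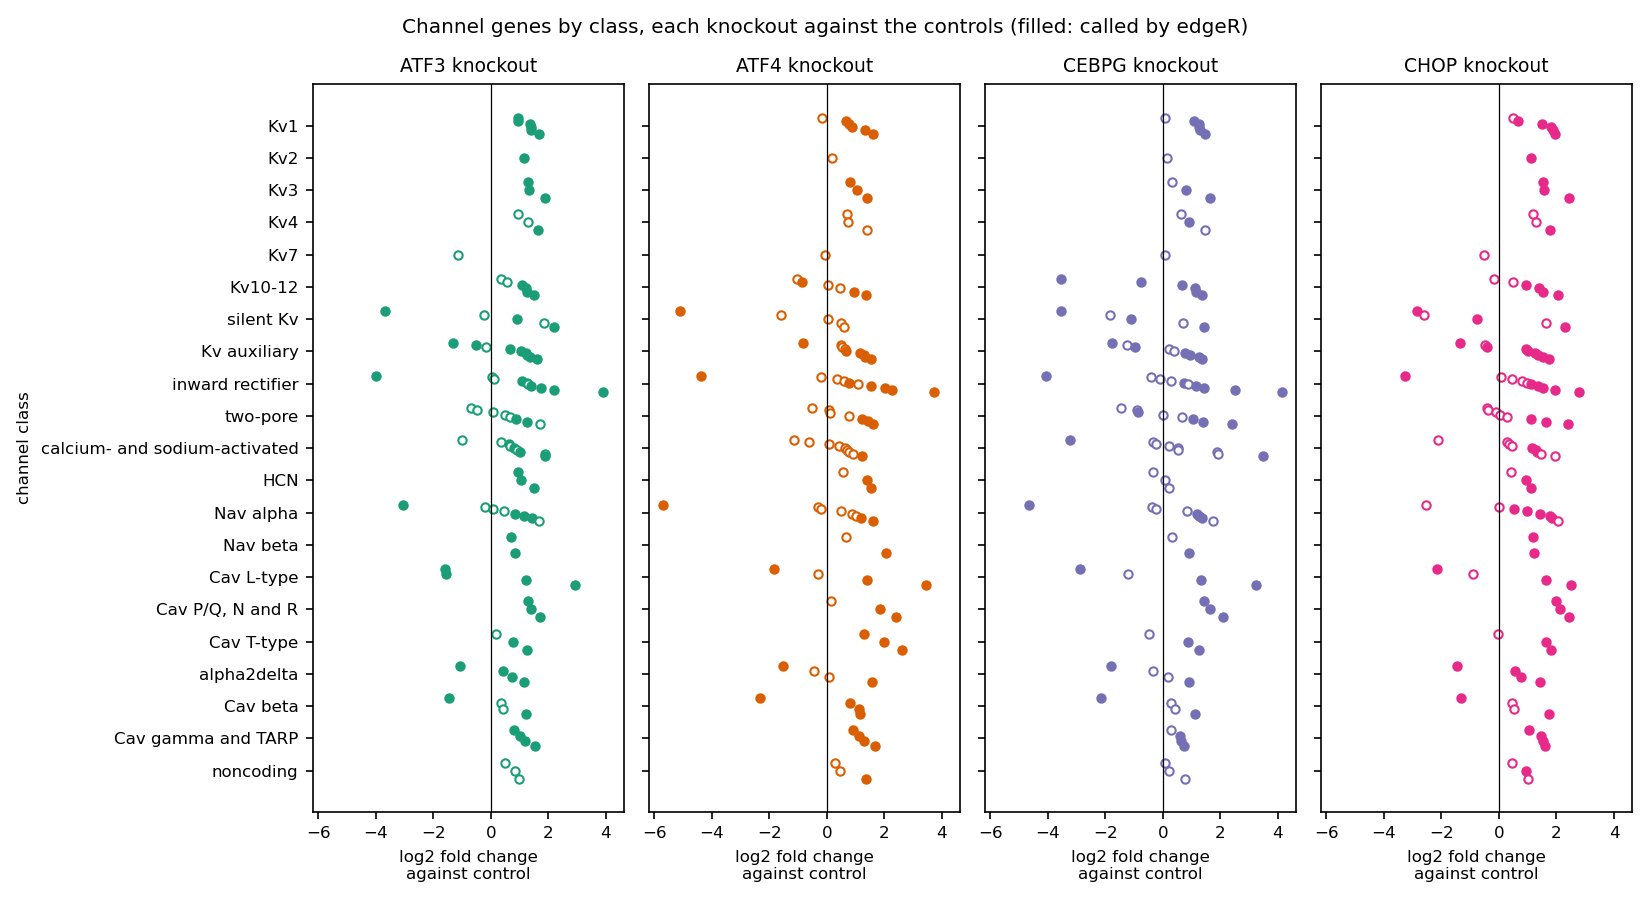
Log2 fold change of each channel gene against the controls (horizontal axis) by channel class (vertical axis), 1 panel per knockout. Each point is a gene that averages at least 1 CPM and has reads in both groups, and filled points passed the edgeR test. Genes not reported here are not drawn. Most filled points lie to the right of 0, and the points between -2.85 and -5.10 in the silent Kv and inward rectifier rows are Kcnv2 and Kcnj14.

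The highest channel genes per kilobase of exon differed between the controls and the knockouts. In the controls they were Kcnj14, an inward rectifier, at 273 ± 72.3 CPM per kilobase (SD, n = 4), then Kcnv2 at 92.7 ± 32.5 and Kcne2, an auxiliary subunit, at 74.1 ± 7.83. Kcnj14 stood above the others by more than the SDs, whereas Kcnv2 and Kcne2 overlapped within theirs. In the CHOP knockouts the highest were Cacng3 at 75.2 ± 4.55 (n = 5), Kcnip3 at 72 ± 6.58, Kcnab3 at 63.5 ± 11 and Kcnj9 at 61.6 ± 10.9 CPM per kilobase, with overlapping SDs. Kcnip3, Cacng3, Kcnj9, Kcnab3, Kcna5 and Kcnk1 were among the highest 8 in each of the 4 knockout groups.

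Channels of photoreceptors fell in each knockout group. Cacna1f, Cacna2d4 and Cacnb2, the subunits of the L-type calcium channel at the photoreceptor synapse, and Kcnv2, a part of the photoreceptor potassium channel, fell in each of the 4 comparisons. Each of these calls held with any 1 library left out.

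Kcnv2 encodes a silent subunit that works only inside channels with other subunits. In replicate order, it was at 456, 608, 245 and 585 CPM in the controls, 35.8, 34.6, 38.1, 36 and 40.2 CPM in the ATF3 and 8.93 and 18.6 CPM in the ATF4 knockouts. The CEBPG knockouts had 30.7, 73.5, 30.8 and 26.4 CPM and the CHOP knockouts 54.7, 95.9, 45.1, 49.3 and 82.5 CPM. Control replicate 7 was the lowest control and still stood above each knockout library. Its log2 fold changes were -3.68, -5.10, -3.55 and -2.85 for ATF3, ATF4, CEBPG and CHOP (SE 0.30 to 0.50, adjusted p of 8.85e-08 or less).

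Cacna1f, the pore of that calcium channel (chromosome X, 7607083 to 7635196, plus strand, mm10), was at 295, 449, 226 and 452 CPM in the controls. It was at 104, 124, 122, 127 and 124 CPM in the ATF3, 95 and 104 CPM in the ATF4, 51.9, 61.1, 37.6 and 41.6 CPM in the CEBPG and 80.9, 65.1, 67.3, 96.4 and 93.6 CPM in the CHOP knockouts. The CEBPG libraries lay below all libraries of the other groups. Its log2 fold changes were -1.56, -1.84, -2.89 and -2.14 in the order ATF3, ATF4, CEBPG and CHOP, those of the beta subunit Cacnb2 -1.47, -2.33, -2.16 and -1.32 and those of the alpha2delta subunit Cacna2d4 -1.09, -1.53, -1.80 and -1.46. None of these 3 genes overlapped between the controls and any knockout group.

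2 further potassium channel genes, Kcnj14 and Kcne2, fell in all 4 comparisons. Kcnj14 (chromosome 7, 45816460 to 45824782, minus strand) was at 614, 895, 535 and 924 CPM in the controls and at 50.8, 46.8, 43.9, 50.3 and 40.3 CPM in the ATF3, 30.7 and 40.5 CPM in the ATF4, 50.7, 49.8, 39.6 and 36.6 CPM in the CEBPG and 51, 78.1, 88.7, 86.4 and 79.6 CPM in the CHOP knockouts. With log2 fold changes of -4.0, -4.38, -4.07 and -3.27 (adjusted p of 1.12e-09 or less) it had the smallest adjusted p of the channel genes in each comparison with control. Kcne2 had log2 fold changes of -1.33, -0.84, -1.77 and -1.35 in the same order, and its ATF4 call was lost without ATF4 replicate 3 (-0.55, adjusted p = 0.241).

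The rod markers fell too, though not in the same order of groups for each channel gene. The rod medians fell most in ATF3 and least in CHOP, whereas Cacna1f and Cacna2d4 fell less in ATF3 than in CHOP. All 14 rod genes fell in each comparison, with medians of -3.73 (ATF3), -3.60 (ATF4), -3.59 (CEBPG) and -2.80 (CHOP), and their sum was 4165 to 4440 CPM in the ATF3, 3851 to 4889 CPM in the ATF4, 3123 to 5363 CPM in the CEBPG and 5341 to 9126 CPM in the CHOP knockouts. Of 10 cone markers, 8, 2, 9 and 8 fell in the same order. In ATF4 the cone median was -0.04, and 1 cone marker rose, a call lost without control replicate 4, 5 or 8. The cone sum there was 3227 to 4017 CPM, beside 3224 to 4293 CPM in the controls. Of 12 bipolar markers 3, 3, 12 and 11 fell in ATF3, ATF4, CEBPG and CHOP, and 2, 1, 0 and 0 rose. Between knockouts, Kcnj14 was lower in CEBPG than in CHOP (-0.80, SE 0.17, adjusted p = 0.00117), as were 13 of the 14 rod genes. The part of rod RNA in the fall of these channels was not tested.

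**Figure D2:**
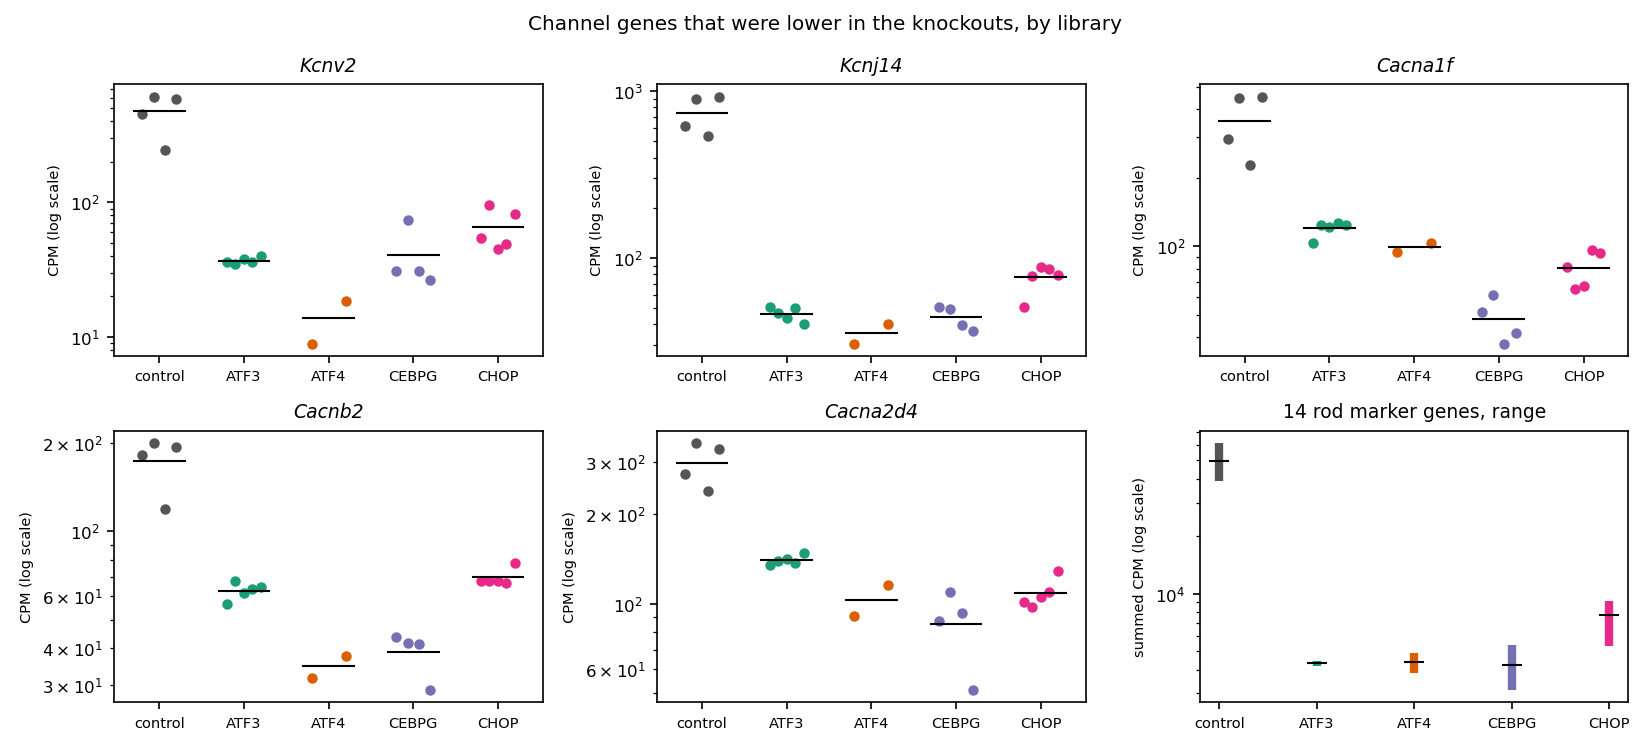
CPM (vertical axis, log scale) of 5 channel genes in each library (points, with the group mean as a line) and, in the last panel, the range and mean of the summed CPM of 14 rod marker genes. For each of the 5 genes the controls stand above all knockout libraries, as they do for the rod sum.

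Kv1 channels, the low-threshold potassium channels of axons, rose together. Of the 6 genes tested, 6 rose in ATF3, 5 in ATF4, 5 in CEBPG and 5 in CHOP knockouts, with medians of 1.38, 0.81, 1.26 and 1.64. The ATF4 count was 3 without either ATF4 library. Kcna1, whose product lies beside the nodes of myelinated axons, was at 41.3, 28, 44.2 and 21.3 CPM in the controls, 90.9, 88.6, 99.6, 71.6 and 95 CPM in the ATF3 and 103 and 103 CPM in the ATF4 knockouts. It was at 102, 73.9, 105 and 51.2 CPM in the CEBPG and 153, 111, 126, 99.9 and 164 CPM in the CHOP knockouts. Each knockout library was above the highest control, though CEBPG replicate 10 came close to it. The log2 fold changes of Kcna1 were 1.40, SE 0.22, adjusted p = 2.23e-05 in the ATF3 knockouts and 1.61, SE 0.26, adjusted p = 5.42e-05 in the ATF4 knockouts. They were 1.30, SE 0.23, adjusted p = 8.12e-05 in the CEBPG knockouts and 1.95, SE 0.22, adjusted p = 2.57e-07 in the CHOP knockouts.

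Kcna2, its partner in the same tetramers, was at 39.5, 41, 31.7 and 29.1 CPM in the controls, 88.4, 92.3, 105, 96.3 and 86.7 CPM in the ATF3, 60.1 and 51.9 CPM in the ATF4, 105, 73.5, 87.9 and 72 CPM in the CEBPG and 127, 140, 111, 127 and 150 CPM in the CHOP knockouts. The CHOP libraries were the highest and did not overlap with any other group. Its log2 fold changes were 1.41, 0.67, 1.26 and 1.89, and the ATF4 call was lost without ATF4 replicate 1 (0.56, adjusted p = 0.0804). Kcna6 rose by 1.36, 1.34, 1.09 and 1.48 and Kcna4, an A-type channel, by 1.68, 0.76, 1.26 and 1.80. The ATF4 call of Kcna4 was lost without ATF4 replicate 1 or 3 or without control replicate 7 or 8 (adjusted p of 0.0878, 0.247, 0.119 and 0.135).

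2 Kv1 genes departed from this order. Kcna5 rose in ATF3 (0.93, SE 0.19, adjusted p = 0.000374) and ATF4 (0.86, SE 0.23, adjusted p = 0.00592, lost without ATF4 replicate 3 with adjusted p = 0.109) but did not pass in CEBPG (0.09, SE 0.19, adjusted p = 0.766). It rose in CHOP (0.65, SE 0.18, adjusted p = 0.00823), a call lost without control replicate 8 (adjusted p = 0.0596). Kcna3, a channel of T cells as well as of neurons, was at 28.5, 26.2, 33.2 and 15.1 CPM in the controls, 33.9, 52, 53.8, 50 and 55.8 CPM in the ATF3 and 82.3, 95, 65.9 and 44.6 CPM in the CEBPG knockouts. It rose in ATF3 (0.93) and CEBPG (1.48) and did not pass in ATF4 (-0.18) or CHOP (0.47).

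Kv3 channels, which let neurons fire fast by closing spikes quickly, are represented here by Kcnc1, Kcnc2 and Kcnc4. Kcnc1 was at 84.1, 63.5, 112 and 54.8 CPM in the controls, 196, 201, 187, 189 and 204 CPM in the ATF3, 222 and 191 CPM in the ATF4, 125, 141, 167 and 118 CPM in the CEBPG and 280, 176, 237, 229 and 245 CPM in the CHOP knockouts. The CEBPG values lay between the controls and the other knockouts. Its log2 fold changes were 1.31, 1.39, 0.81 and 1.57, with adjusted p of 0.000697 or less.

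Kcnc2 was at 42.7, 22.8, 24.7 and 13.7 CPM in the controls, 95.2, 114, 92.3, 91.4 and 89.5 CPM in the ATF3, 43.1 and 48.3 CPM in the ATF4, 78.4, 77.5, 102 and 68.3 CPM in the CEBPG and 161, 108, 129, 125 and 177 CPM in the CHOP knockouts. The ATF4 libraries were barely above the highest control. It rose by 1.89, 0.81, 1.65 and 2.43, and the ATF4 call was lost without ATF4 replicate 1 or 3 or without control replicate 5 or 8 (adjusted p of 0.0757, 0.146, 0.0748 and 0.0902). Kcnc4 rose in ATF3 (1.28), ATF4 (1.04, lost without ATF4 replicate 3 with adjusted p = 0.109) and CHOP (1.53).

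Among the other voltage-gated potassium channels the Kv2 gene Kcnb2 rose in ATF3 (1.16, SE 0.24, adjusted p = 0.000503) and with CHOP guides (1.12, SE 0.24, adjusted p = 0.00069) and did not pass in ATF4 (0.17) or CEBPG (0.14). Of 3 Kv4 genes, which carry the A-type current of dendrites, Kcnd3 rose in ATF3 (1.64), CEBPG (0.90) and CHOP (1.77), and Kcnd1 and Kcnd2 passed in no comparison. In the ether-a-go-go family, of 7 genes tested, 4, 2, 4 and 4 rose in ATF3, ATF4, CEBPG and CHOP and 0, 1, 2 and 0 fell. Kcnh2, the HERG channel, rose in all 4 (1.07, 1.35, 0.65 and 1.38). Kcnh1 rose in ATF3 (1.24), CEBPG (1.15) and CHOP (0.93). Without ATF4 replicate 3 or without control replicate 5, 7 or 8, 1 gene of the family rose in ATF4. Kcnh5 fell in ATF4 (-0.88), a call lost without ATF4 replicate 1 (-0.29, adjusted p = 0.592) or without control replicate 4 or 5 (0.113 and 0.0586). Kcnh6 (-0.75) and Kcnh8 (-3.53, from a control mean of 1.7 CPM) fell in CEBPG. The Kcnh6 call was lost without CEBPG replicate 6, 9 or 10 or without control replicate 5, 7 or 8 (adjusted p of 0.0506 to 0.143), and the Kcnh8 call without CEBPG replicate 6, 8 or 9 or without control replicate 4 (0.0505 to 0.141).

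The silent Kv subunits, which form no channel on their own, moved both ways. Kcns2 rose in ATF3 (2.20), CEBPG (1.44) and CHOP (2.30) and did not pass in ATF4 (0.49). Kcng4 was at 52.3, 35, 44.7 and 34.4 CPM in the controls, 87.3, 71, 62.9, 85.5 and 82.4 CPM in the ATF3, 8.92, 32.4, 23.6 and 11.7 CPM in the CEBPG and 21.3, 15.1, 33.1, 16.5 and 36 CPM in the CHOP knockouts. Each ATF3 library was above every CEBPG and CHOP library. Against control it rose in ATF3 (0.90), a call lost without control replicate 5 or 8 (adjusted p of 0.078 and 0.0809), and fell in CEBPG (-1.11) and CHOP (-0.77). The CHOP call was lost without CHOP replicate 1, 2 or 4 or without control replicate 4 or 7 (0.0719 to 0.133). Kcng1 was at 0 in the CHOP libraries and at least 20.8-fold lower there over 3 reads, a call lost with any 1 CHOP library left out or without control replicate 7 or 8 (0.0588 to 0.0767). Between knockouts, Kcng4 was higher in ATF3 than in CHOP (1.67, SE 0.28, adjusted p = 0.00113) and than in CEBPG (2.01, SE 0.31, adjusted p = 5.44e-05), in which 11 and 10 of 12 bipolar cell markers were higher in ATF3 too. The part of bipolar cell RNA in this was not tested.

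Auxiliary subunits of Kv channels rose more often than they fell. Of 11 tested, 6, 5, 4 and 6 rose in ATF3, ATF4, CEBPG and CHOP and 2, 1, 2 and 2 fell, the single ATF4 call being that of Kcne2. Kcnab1, the beta subunit that gives Kv1 channels fast inactivation, was at 95.5, 60.6, 74.3 and 80 CPM in the controls, 236, 215, 252, 236 and 242 CPM in the ATF3, 107 and 138 CPM in the ATF4, 249, 166, 182 and 207 CPM in the CEBPG and 295, 178, 209, 315 and 314 CPM in the CHOP knockouts. No knockout library overlapped with the controls, and the ATF4 libraries were the closest to them. It rose by 1.60, 0.65, 1.37 and 1.75, with the ATF4 call lost without ATF4 replicate 3 or without control replicate 5 (adjusted p of 0.233 and 0.0776). Kcnab2 went the other way and fell in ATF3 (-0.52), CEBPG (-0.95) and CHOP (-0.42), the last lost in 5 of the 9 fits that leave out 1 CHOP or control library (adjusted p of 0.0534 without CHOP replicate 1, 0.0994 without 2, and 0.0632, 0.0848 and 0.0646 without control replicates 4, 5 and 7), so that without any of these 1 auxiliary gene fell in CHOP.

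Kcnip3, a calcium-binding subunit of Kv4 channels that also acts as a transcriptional repressor, was at 113, 91.2, 106 and 83.4 CPM in the controls and at 254, 236, 220, 217 and 217 CPM in the ATF3 knockouts. It was at 220 and 218 CPM in the ATF4, 163, 183, 182 and 148 CPM in the CEBPG and 255, 222, 247, 268 and 284 CPM in the CHOP knockouts. The controls and knockouts did not overlap, and the CEBPG libraries lay between the controls and the rest. It rose by 1.22, 1.15, 0.78 and 1.37 (adjusted p of 6.86e-06 or less). Kcnip1 (1.36, 1.32, 1.26 and 1.55) and Kcnip2 (1.05, 1.53, 0.93 and 1.25), of the same family, rose in all 4 as well.

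Since the targeted proteins are bZIP factors, the promoters were searched for their DNA motifs on both strands, in windows of 300 bases from 250 before to 50 after a start site (RefSeq, GRCm38.p6). A window was found for 93 of the 129 genes, with 129 windows in all because some genes have several starts. No window held TGATGNAAT, the joint C/EBP-ATF element found in 0.965% of all 32851 windows, TGACGTCA, the cyclic AMP response element found in 1.79%, or TTGCGCAA, a C/EBP palindrome found in 0.183%. The AP-1 motif TGANTCA was in 5 windows, 3.876%, beside 7.81% of all windows. The composite with a free last base, TGATGNAAN, which contains the first motif, was also in 5 windows, 3.876%, beside 3.95% of all. Matches are descriptions of letters and not of binding. The 2 promoters with an AP-1 motif whose gene rose in all 4 comparisons, Kcnip3 and Cacng5, are printed whole (chr2:127522045-127522344 and chr11:107915006-107915305, both minus strand) so that the motif can be seen in its place, in capitals, starting 122 and 214 bases before the start site.
Kcnip3: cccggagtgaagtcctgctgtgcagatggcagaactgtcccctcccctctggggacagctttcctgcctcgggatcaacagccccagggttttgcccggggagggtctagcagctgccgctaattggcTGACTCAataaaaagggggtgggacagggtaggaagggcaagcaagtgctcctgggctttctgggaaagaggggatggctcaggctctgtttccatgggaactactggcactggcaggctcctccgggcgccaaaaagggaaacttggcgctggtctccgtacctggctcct
Cacng5: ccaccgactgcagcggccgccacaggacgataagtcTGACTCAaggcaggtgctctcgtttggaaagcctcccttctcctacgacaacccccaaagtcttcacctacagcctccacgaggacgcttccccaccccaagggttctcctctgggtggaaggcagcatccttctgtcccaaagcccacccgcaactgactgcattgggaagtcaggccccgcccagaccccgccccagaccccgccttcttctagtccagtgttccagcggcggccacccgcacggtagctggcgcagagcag

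The other matches are shown with 11 bases on each side and the motif in capitals, in the order AP-1 then composite, because they are all that the search found among the channel genes. The windows lie at chr1:189344301-189344329, minus strand (Kcnk2), chr5:49285724-49285752, minus strand (Kcnip4), chr7:100176622-100176650, plus strand (Kcne3), chr2:66634988-66635018, minus strand (Scn9a), chr3:65108954-65108984, plus strand (Kcnab1), chr6:118758007-118758037, plus strand (Cacna1c), chr9:58822950-58822980, plus strand (Hcn4) and chr16:92295504-92295534, plus strand (Kcne2).
Kcnk2: ccatcctccccTGACTCAgtcatacagtt
Kcnip4: tgcttacatgcTGATTCAttgatgagctg
Kcne3: ctaaggtggtaTGAATCAgagtttctgat
Scn9a: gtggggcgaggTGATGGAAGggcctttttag
Kcnab1: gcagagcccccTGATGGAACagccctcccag
Cacna1c: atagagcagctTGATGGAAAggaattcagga
Hcn4: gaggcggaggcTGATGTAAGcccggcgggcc
Kcne2: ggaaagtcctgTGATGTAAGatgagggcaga
Of these genes Kcnab1 and Cacna1c rose in all 4 comparisons, Kcne2 fell in all 4, Kcnk2 passed in none and Kcne3 was not tested.

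Of the 9 pore-forming sodium channel genes 3 rose in ATF3, 2 in ATF4, 3 in CEBPG and 5 in CHOP, with Scn1a and Scn2a1 among them each time. Scn1a, a channel of fast-spiking neurons, was at 36.9, 28.7, 44.7 and 32.9 CPM in the controls, 53.8, 67.6, 70.1, 64.9 and 61.5 CPM in the ATF3, 62.1 and 100 CPM in the ATF4, 108, 66.2, 90.1 and 61.7 CPM in the CEBPG and 94.7, 89, 101, 102 and 90.9 CPM in the CHOP knockouts. Each knockout library was above the highest control. It rose by 0.82, 1.18, 1.18 and 1.41 (adjusted p of 0.000602 or less). Scn2a1, the channel of young and unmyelinated axons, rose by 1.16, 1.61, 1.27 and 1.84 from a control mean of 12.4 CPM. Scn3a, which is raised after nerve injury in sensory neurons, rose in ATF3 (1.44), CEBPG (1.37) and CHOP (1.78), with 0.86 and adjusted p = 0.0534 in ATF4. Scn4a, the skeletal muscle channel, had low levels and calls downward in ATF3 (-3.06), ATF4 (-5.69) and CEBPG (-4.65). The ATF3 call was not kept without ATF3 replicate 6, 7, 8 or 9 or without control replicate 4, 5 or 8, and the ATF4 call without ATF4 replicate 1 or 3 or without control replicate 5 or 8 (adjusted p of 0.0506 to 0.175).

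Scn8a, the main sodium channel of mature axon initial segments and nodes, departed from Scn1a and Scn2a1. It was at 35.7, 59.3, 34.2 and 36.7 CPM in the controls, 30.7, 38.9, 37.2, 31.9 and 40.2 CPM in the ATF3, 31.5 and 34.8 CPM in the ATF4, 37.4, 36.1, 33.4 and 33.3 CPM in the CEBPG and 70.4, 59.9, 55.7, 47.6 and 65.2 CPM in the CHOP knockouts. Control replicate 5 was as high as the CHOP libraries and the other controls were level with the remaining knockouts. It did not pass in ATF3 (-0.21), ATF4 (-0.32) or CEBPG (-0.24). The CHOP call (0.53, SE 0.17, adjusted p = 0.0153) was lost without CHOP replicate 1 or without control replicate 4, 7 or 8 (adjusted p of 0.0657, 0.0521, 0.0672 and 0.0745). Within batch 3, Scn8a was lower in ATF3 than in CHOP (-0.74, SE 0.15, adjusted p = 0.00807) and lower in CEBPG than in CHOP (-0.77, SE 0.17, adjusted p = 0.00126), and both calls held with any 1 library left out.

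Sodium channel beta subunits are adhesion proteins that bind the pore. Scn2b was at 8.64, 7.77, 9.78 and 9.47 CPM in the controls, 17, 12.5, 15.1, 15.9 and 12.1 CPM in the ATF3, 27.8 and 45.9 CPM in the ATF4, 9.93, 10, 14.4 and 10.1 CPM in the CEBPG and 20.4, 22.8, 19.2, 27.2 and 14.7 CPM in the CHOP knockouts. Both ATF4 libraries stood above all libraries of the other groups, and each knockout library was above the highest control. It rose in ATF4 (2.04, SE 0.28, adjusted p = 5.63e-06) and in CHOP (1.22, SE 0.23, adjusted p = 0.000204). Its ATF3 call (0.70) was not kept without ATF3 replicate 5 or without control replicate 5 (adjusted p of 0.0513 and 0.072), and it did not pass in CEBPG (0.32). Batch 1 holds the ATF4 knockouts alone, so ATF4 and batch cannot be told apart here.

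Of the 11 channel genes listed for the axon initial segment and node, 10 were tested. In ATF3 6, in ATF4 7, in CEBPG 5 and in CHOP 7 of them rose and none fell, with medians of 0.89, 1.32, 1.13 and 1.35. Scn4b did not pass the filter and was at 0 in the controls and the ATF4 knockouts. Of 6 channel genes listed for nerve injury (Scn3a, Cacna2d1, Kcnip3, Kcnk2, Kcna2 and Kcnn4), 4, 2, 4 and 5 rose in the same order and none fell. Cacna2d1, the gabapentin-binding subunit that rises in injured sensory neurons, was at 18.9 CPM in the controls and 19.6 to 31.9 CPM in group means of the knockouts. Its ATF3 (0.74) and CHOP (0.76) calls were lost without control replicate 5 (adjusted p of 0.0565 and 0.0503) or 7 (0.0569 and 0.0553), and the CHOP call without CHOP replicate 2 (0.054). The list's CHOP count was 3 without control replicate 5 and its ATF4 count was 1 without ATF4 replicate 1.

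**Figure D3:**
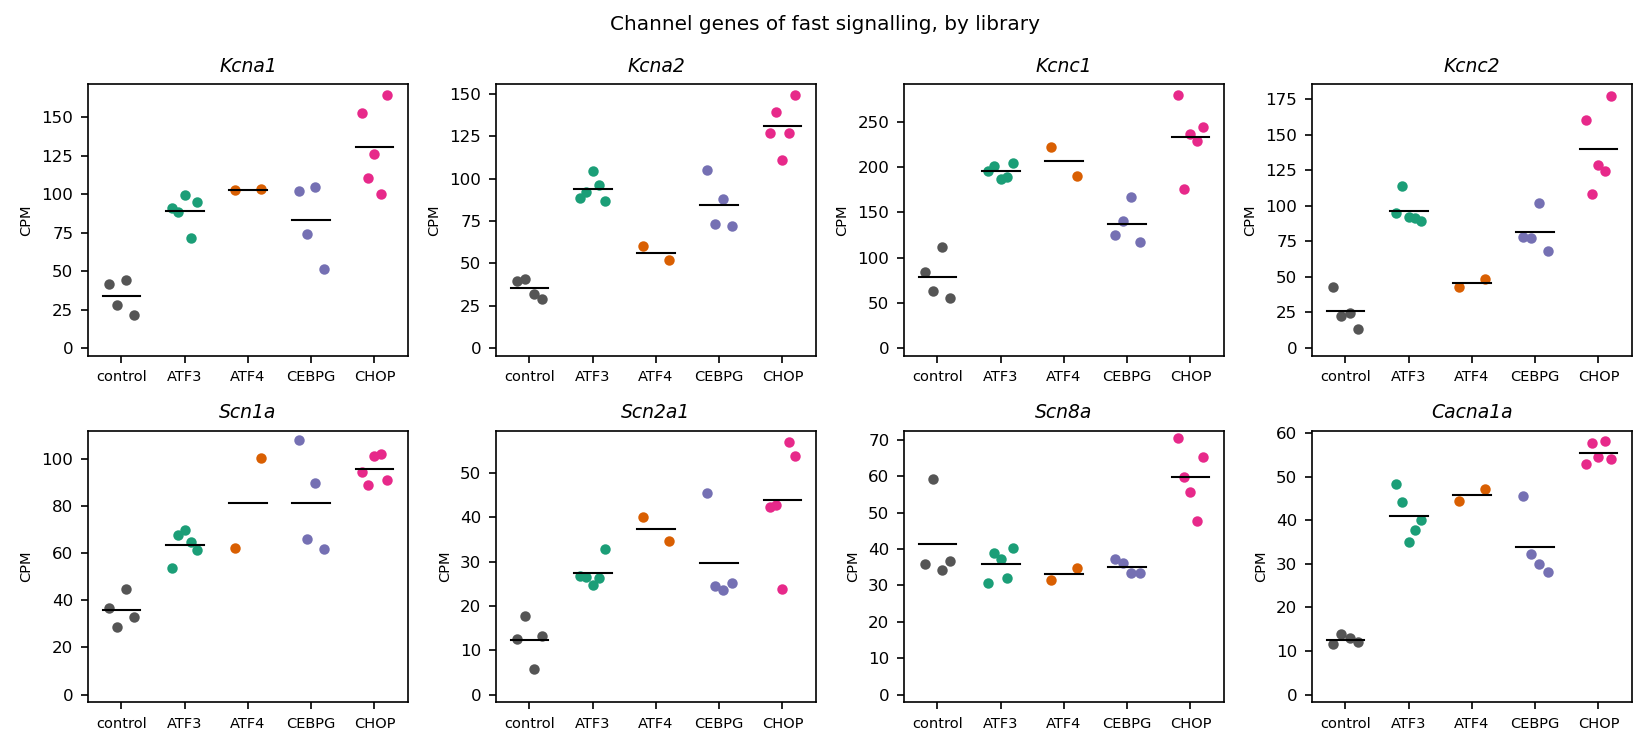
CPM (vertical axis, linear from 0) of 8 channel genes of fast signalling in each library (points), with the group mean as a line. Kcna1, Kcna2, Kcnc1, Kcnc2, Scn1a, Scn2a1 and Cacna1a are higher in the knockout groups than in the controls, whereas Scn8a is above 3 of the 4 controls in all CHOP libraries and at about the level of those 3 in the other knockouts.

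Calcium channels of transmitter release rose as well. Cacna1a, the P/Q-type pore, was at 11.5, 13.9, 13 and 12.1 CPM in the controls, 48.3, 44.1, 35.1, 37.8 and 40 CPM in the ATF3, 44.3 and 47.2 CPM in the ATF4, 45.6, 32.3, 29.9 and 28.1 CPM in the CEBPG and 53, 57.9, 54.6, 58.2 and 54 CPM in the CHOP knockouts. All knockout libraries stood well above the highest control. It rose by 1.70, 1.86, 1.43 and 2.14 (adjusted p of 3.3e-07 or less). The N-type pore Cacna1b rose by 1.38, 2.40, 1.62 and 1.97. Its ATF3 call was not kept without ATF3 replicate 5 or without control replicate 4, 5 or 8 (adjusted p of 0.0542, 0.0946, 0.0744 and 0.114), and its CEBPG call without CEBPG replicate 6 or without control replicate 4 or 8 (0.164, 0.0509 and 0.0591). The R-type pore Cacna1e rose in CEBPG (2.08) and CHOP (2.43), and its ATF3 call (1.30) was not kept without ATF3 replicate 7, 8 or 9 or without control replicate 4 or 8 (0.0647 to 0.132). Of these 3 genes 3 rose in ATF3, and 1 did so without control replicate 4 or 8.

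L-type pores moved both ways. Against the fall of Cacna1f, Cacna1c, the L-type channel of many neurons and of muscle, was at 1.53, 0.972, 0.255 and 0.625 CPM in the controls, 5.23, 5.18, 7.85, 5.31 and 8.56 CPM in the ATF3, 7.89 and 10.7 CPM in the ATF4, 14.9, 6.07, 6.49 and 4.44 CPM in the CEBPG and 7.56, 2.95, 3.37, 5.74 and 4.49 CPM in the CHOP knockouts. The level was low throughout, but no knockout library was below the highest control. It rose by 2.93, 3.46, 3.23 and 2.51 (adjusted p of 0.000529 or less). Cacna1d rose by 1.22, 1.39, 1.33 and 1.63, with the ATF4 call lost without ATF4 replicate 1 (0.94, adjusted p = 0.161). Cacna1s, the skeletal muscle pore, fell in ATF3 (-1.60), a call lost without ATF3 replicate 5 or 7 (adjusted p of 0.056 and 0.0566).

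T-type pores open near rest and drive bursts. Cacna1i, 1 of the 3, was at 6.12, 8.42, 6.8 and 7.68 CPM in the controls, 15.4, 10.5, 13, 9.71 and 13.6 CPM in the ATF3, 42 and 46.6 CPM in the ATF4, 17.4, 28.4, 15 and 9.12 CPM in the CEBPG and 21.4, 19.7, 35.1, 33.6 and 17.6 CPM in the CHOP knockouts. The ATF4 libraries lay above all others. It rose in ATF4 (2.61, SE 0.35, adjusted p = 4.36e-06), in the CEBPG knockouts (1.27, SE 0.30, adjusted p = 0.00192) and with CHOP guides (1.82, SE 0.29, adjusted p = 3.34e-05). The ATF3 call (0.78) was lost in 7 of the fits that leave out 1 ATF3 or control library (adjusted p of 0.0578 to 0.095), without ATF3 replicate 5, 7 or 9 or any control, so that the ATF3 count of the class, 2 of 3, was then 1. Cacna1h rose in ATF4 (1.30, SE 0.22, adjusted p = 9.15e-05) and passed in no other knockout against control, and Cacna1g rose in all 4 (1.27, 1.99, 0.89 and 1.65).

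Auxiliary calcium channel subunits moved both ways, whereas the related TARPs, which carry AMPA receptors to synapses, rose or did not pass. Cacnb2 and Cacna2d4 fell in all 4 comparisons. The 4 beta genes had medians of 0.39, 0.96, 0.36 and 0.50 in ATF3, ATF4, CEBPG and CHOP. Of 4 alpha2delta genes 3, 1, 1 and 3 rose, with medians of 0.58, -0.20, -0.08 and 0.65. Without control replicate 5 the alpha2delta rises were 1 in ATF3, 0 in CEBPG and 1 in CHOP. Of 7 gamma and TARP genes 4, 4, 3 and 4 rose in ATF3, ATF4, CEBPG and CHOP and none fell. Cacng5 was at 80.4, 60.3, 62.2 and 51.3 CPM in the controls, 149, 209, 188, 200 and 182 CPM in the ATF3, 114 and 124 CPM in the ATF4, 97.8, 77.8, 138 and 107 CPM in the CEBPG and 212, 209, 164, 186 and 200 CPM in the CHOP knockouts. CEBPG replicate 8 fell within the range of the controls and the other knockout libraries lay above it. It rose by 1.55, 0.90, 0.73 and 1.61. Cacng3 rose by 1.20, 1.11, 0.60 and 1.45, Cacng2, known as stargazin, by 1.02, 1.29, 0.64 and 1.52, and Cacng4 in ATF3 (0.80), ATF4 (1.69) and CHOP (1.06). The CEBPG call of Cacng2 was lost without CEBPG replicate 10 or without control replicate 5 or 8 (adjusted p of 0.0607, 0.0943 and 0.0618). Cacnb4, a neuronal beta subunit, rose by 1.23, 0.81, 1.11 and 1.74, and its ATF4 call was lost without ATF4 replicate 1 or without control replicate 5 (0.0769 and 0.0503). Cacna2d2 rose by 1.14, 1.55, 0.90 and 1.42, and its CEBPG call was lost without CEBPG replicate 6 or without control replicate 5 (0.0921 and 0.0741).

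Of 12 inward rectifier genes 6, 5, 5 and 5 rose and Kcnj14 alone fell, and the G-protein-coupled channels were among those that rose. Kcnj6, a GIRK channel opened by inhibitory receptors, was at 4.32, 8.1, 6.72 and 2.5 CPM in the controls, 21.5, 25.7, 29.4, 20.6 and 24.9 CPM in the ATF3, 26.5 and 24.9 CPM in the ATF4, 43.9, 32.5, 27.1 and 16.8 CPM in the CEBPG and 38.1, 33.7, 31.5, 35.4 and 42.9 CPM in the CHOP knockouts. All knockout libraries were above the highest control. It rose by 2.20, 2.27, 2.49 and 2.77, and the GIRK subunit Kcnj9 by 1.08, 0.76, 0.74 and 1.10. Kcnj3, the third of these subunits, rose in ATF3 (1.75), CEBPG (1.42) and CHOP (1.93) but not in ATF4 (-0.19, adjusted p = 0.831). Kcnj12, a constitutive inward rectifier, rose by 1.38, 1.53, 1.17 and 1.35.

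Kcnj10, the potassium-buffering channel of Müller glia, was at 7.29, 9.56, 8.25 and 4.91 CPM in the controls and 23.5 and 37.3 CPM in the ATF4 knockouts, and between 2.93 and 12.5 CPM in the other knockouts. It rose in ATF4 (2.02, SE 0.42, adjusted p = 0.000703), where 8 of 13 Müller glia markers rose and their sum was 12357 to 14655 CPM beside 6587 to 10013 CPM in the controls. The 13 markers include Kcnj10 itself, which is among those 8. Without ATF4 replicate 3, 4 of the 13 rose. The Müller sum was 12008 to 13653 CPM in the ATF3 knockouts, where 3 of the 13 rose, 5 fell and Kcnj10 did not pass (0.04). The part of Müller glia RNA in the ATF4 rise was not tested.

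Kcnj8, an ATP-sensitive channel of pericytes and other cells, was at 0.36, 0.648, 0.935 and 0 CPM in the controls, 7.1, 7.19, 4.34, 13.8 and 3.44 CPM in the ATF3, 7.11 and 5.68 CPM in the ATF4, 9.73, 15.1, 1.96 and 7.36 CPM in the CEBPG and 0.84, 0, 0, 2.29 and 1.08 CPM in the CHOP knockouts. The CHOP libraries overlapped with the controls and the other knockouts did not. It rose in ATF3 (3.89, SE 1.09, adjusted p = 0.00735), with ATF4 guides (3.72, SE 1.20, adjusted p = 0.02) and with CEBPG guides (4.14, SE 1.12, adjusted p = 0.00562) and did not pass in CHOP (0.79, SE 1.03, adjusted p = 0.601). The ATF4 call was lost without ATF4 replicate 1 or without control replicate 8 (adjusted p of 0.0818 and 0.0539).

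Of 11 two-pore channels, which carry the leak current, 4, 3, 5 and 4 rose in ATF3, ATF4, CEBPG and CHOP and 0, 1, 1 and 0 fell. The CEBPG count of rises was 2 without CEBPG replicate 8 and 3 without control replicate 7. Kcnk1 rose in ATF3 (0.86), ATF4 (1.21) and CHOP (1.10) and not in CEBPG (-0.01, adjusted p = 0.98). Kcnk4 rose by 1.25, 1.62, 1.40 and 1.64 from a control mean of 2.06 CPM. Kcnk3 rose in ATF4 (1.45, SE 0.34, adjusted p = 0.00218) and fell in CEBPG (-0.87, SE 0.29, adjusted p = 0.0252), the latter call lost without CEBPG replicate 6 or 9 or without control replicate 7 (adjusted p of 0.0783, 0.079 and 0.136). Kcnk9 was at 0 in both ATF4 libraries and at least 3.36-fold lower there over 3 reads, a call lost without either ATF4 library (0.107 and 0.102). Kcnk5 was at 0 in all control and ATF4 libraries. It was at 1.99, 1.23, 3.08, 0 and 2.58 CPM in the ATF3, 29.7, 7.19, 21.1 and 18.2 CPM in the CEBPG and 3.5, 2.29, 2.66, 7.38 and 3.95 CPM in the CHOP knockouts. Set against 3 reads summed over the control libraries, the pooled level was at least 23.3-fold higher in ATF3, at least 245-fold higher in CEBPG and at least 50.5-fold higher in CHOP.

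Kcnn4, the calcium-activated potassium channel of lymphocytes and microglia, stood apart in the CEBPG knockouts. It was at 1.71, 0.81, 6.12 and 10.2 CPM in the controls, 10.5, 9.36, 8.32, 4.73 and 12.3 CPM in the ATF3, 12.5 and 5.84 CPM in the ATF4, 48.4, 48.8, 65.5 and 51.7 CPM in the CEBPG and 11.5, 10.2, 16.7, 9.88 and 10.2 CPM in the CHOP knockouts. Each CEBPG library was above all libraries of the other groups. It rose in CEBPG (3.47, SE 0.48, adjusted p = 4.1e-06), and its CHOP call (1.28) was lost without CHOP replicate 3 or without control replicate 4 or 5 (adjusted p of 0.0688, 0.0901 and 0.0883). A list of 8 counted lymphocyte genes summed to 62.8 to 80.5 CPM in the controls, 357 to 412 CPM in the ATF3, 44.9 to 111 CPM in the ATF4, 1592 to 2390 CPM in the CEBPG and 320 to 512 CPM in the CHOP knockouts, and 8, 5, 8 and 8 of them rose (1 in ATF4 without ATF4 replicate 1). Ptprc alone averaged 62.6 CPM of a mean sum of 71.2 CPM in the controls. In ATF4 it averaged 42.5 of 77.9 CPM and fell (-0.56), and in CEBPG 439 of 1959 CPM. Of 10 microglia markers, 5 rose in CEBPG and their sum was 5212 to 6640 CPM beside 3900 to 5999 CPM in the controls, the count being 1 to 8 with 1 library left out. Of 7 channel genes listed for glia and immune cells (Kcnj10, Kcnj2, Kcnn4, Kcnk13, Kcnk6, Kcna3 and Kcnj16), 1, 1, 3 and 1 rose in ATF3, ATF4, CEBPG and CHOP. The CHOP count was 0 without CHOP replicate 3 or without control replicate 4 or 5, and the ATF3 and ATF4 counts were 2 without control replicate 8. The CEBPG count includes Kcnk13, whose call was lost without CEBPG replicate 8, 9 or 10 or without control replicate 4, 5 or 7 (adjusted p of 0.054 to 0.143). The part of lymphocyte and microglia RNA in the rises of Kcnn4, Kcna3 and Kcnk5 was not tested.

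**Figure D4:**
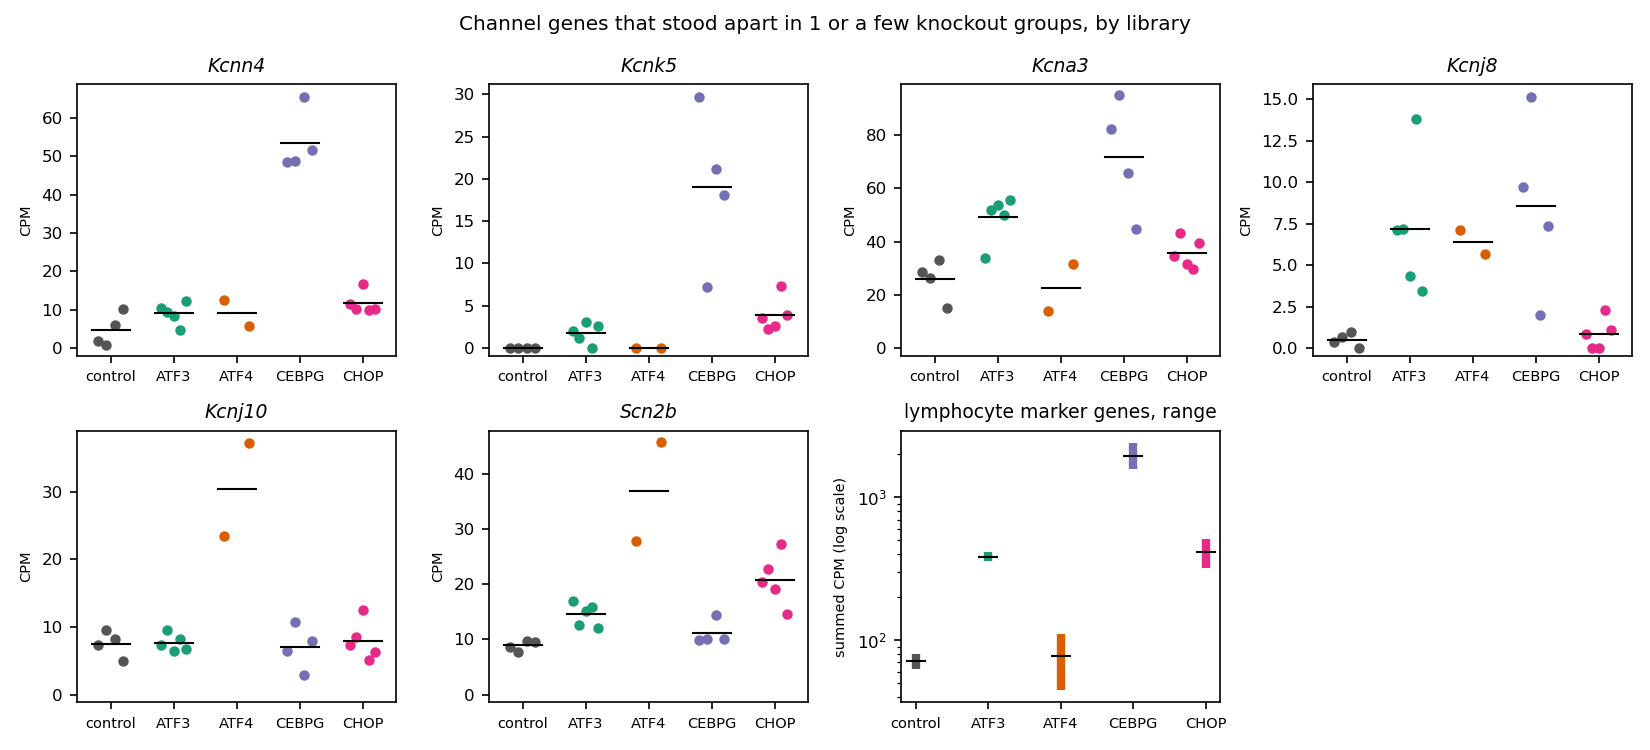
CPM (vertical axis, linear from 0) of 6 channel genes in each library (points, with the group mean as a line) and, in the last panel on a log scale, the range and mean of the summed CPM of lymphocyte marker genes. Kcnn4, Kcnk5 and Kcna3 are highest in the CEBPG knockouts, and Kcnj10 and Scn2b in the ATF4 knockouts.

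HCN and calcium-activated channels completed the set. Hcn2 rose in ATF3 (0.93), ATF4 (1.55) and CHOP (0.94), and Hcn3 in ATF3 (1.06). Hcn4, a channel of rhythmically active cells, was at 6.48, 4.21, 6.72 and 6.79 CPM in the controls, 15.2, 20.7, 18.6, 16.9 and 14.7 CPM in the ATF3, 10.5 and 21.7 CPM in the ATF4, 4.26, 5.11, 5.19 and 4.44 CPM in the CEBPG and 16.5, 9.95, 12, 14.8 and 12.2 CPM in the CHOP knockouts. The CEBPG libraries lay within the control range and the other knockouts above it. It rose in ATF3 (1.5, SE 0.27, adjusted p = 0.000106), with ATF4 guides (1.41, SE 0.32, adjusted p = 0.0016, lost without ATF4 replicate 3 with adjusted p = 0.15) and with CHOP guides (1.10, SE 0.26, adjusted p = 0.00204). Of 10 calcium- and sodium-activated channels 4, 1, 1 and 3 rose, the ATF3 count being 2 without ATF3 replicate 7 or 9 or without control replicate 5 and the ATF4 count 0 without ATF4 replicate 3 or without control replicate 5. Kcnn2 rose in ATF3 (1.03) and CHOP (1.34), and Kcnma1, the BK channel, in ATF3 (0.62). Kcnmb2, a BK beta subunit, fell in CEBPG (-3.25), a call lost without CEBPG replicate 6, 8 or 9 or with any 1 control left out (adjusted p of 0.051 to 0.109).

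Most amacrine cell markers rose in each comparison with control too, though not in the same order of groups for each channel. The amacrine median and the rise of Kcnc1 were smallest in CEBPG, whereas the Kv1 median was smallest in ATF4. Of 13 such genes 12, 11, 11 and 12 rose in ATF3, ATF4, CEBPG and CHOP, with medians of 1.47, 1.60, 0.85 and 1.82. Their sum was 1790 to 3032 CPM in the controls, 6690 to 6960 CPM in the ATF3, 5636 to 6178 CPM in the ATF4, 3487 to 4918 CPM in the CEBPG and 7897 to 9520 CPM in the CHOP knockouts. Of 15 ganglion cell markers 4, 8, 2 and 3 rose and 6, 0, 5 and 3 fell, with 4 rising in ATF4 without either ATF4 library or without control replicate 8 and 5 without control replicate 5. The part of amacrine cell RNA in the rise of the Kv, Nav and Cav genes was not tested.

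Genes whose proteins place, bind or regulate these channels were read from a separate list of 37. In ATF3 19 rose and 4 fell, in ATF4 16 and 1, in CEBPG 15 and 6, and in CHOP 21 and 4, with medians of 0.58, 0.67, 0.28 and 0.94. Without ATF4 replicate 3, 9 rose in ATF4, and without ATF3 replicate 6 or 9, 2 fell in ATF3. Fgf14, which binds sodium channels at the axon initial segment, rose by 2.11, 1.31, 1.86 and 2.38 in ATF3, ATF4, CEBPG and CHOP. Ank3, the ankyrin that anchors sodium and Kv7 channels there, rose by 0.58, 0.79, 0.58 and 1.10. Dpp6, a subunit of Kv4 channels, rose by 1.47, 0.98, 0.69 and 1.72, and Adam22, a partner of axonal Kv1 channels, by 1.79, 0.64, 1.49 and 2.16. Dlg4, the scaffold PSD-95, which rods also hold at their terminals, fell by 1.99, 1.26, 1.92 and 1.35 on the log2 scale.

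The same-batch comparisons addressed how the knockouts differ from each other. Between ATF3 and CHOP knockouts 1 channel gene was higher and 6 were lower in ATF3, where 2.26% of all genes passed, 1.51% higher and 0.756% lower. The higher gene was Kcng4, and the lower ones included Kcnj14, Scn8a, Kcna2, Scn1a and Cacna1i. Kcng4 and Scn8a held with any 1 library left out. Kcnj14 (-0.73, SE 0.16, adjusted p = 0.012) was not kept without ATF3 replicate 9 or CHOP replicate 4 (adjusted p of 0.0524 and 0.0501). The calls of Kcna2 (-0.48, adjusted p = 0.04), Scn1a (-0.59, 0.0477) and Cacna1i (-1.03, 0.0326) were lost in 9, 10 and 6 of the 10 fits that leave out 1 library. The count lower was 2 to 4 in those fits, and a fit of these 2 groups alone called 8 higher and 17 lower. Of 14 rod markers 9 were lower in ATF3 too, with a median of -0.91 over the 14, and of 12 bipolar markers 11 were higher. None of the 15 ganglion cell markers passed. The part of rod RNA in the difference of Kcnj14 was not tested.

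Between ATF3 and CEBPG knockouts 27 channel genes were higher and 2 lower in ATF3, with 20.4% of all genes passing, 10.1% higher and 10.2% lower. The median was 0.27, beside 0.00 for all genes. Hcn4 was higher in ATF3 by 1.85, SE 0.27, adjusted p = 2.37e-05. Hcn2 (0.70) and Hcn3 (0.99) followed, the Hcn2 call being lost without CEBPG replicate 6 (adjusted p = 0.0501). Cacna1f (1.33, SE 0.19, adjusted p = 1.66e-05), Cacnb2 (0.70) and Cacna2d4 (0.72) of the photoreceptor calcium channel were higher too, whereas Kcnv2 (-0.13) did not pass. Of the rod markers 0 were higher and 1 was lower (2 higher and 0 lower without CEBPG replicate 8), of 10 cone markers 5 and of 12 bipolar markers 10 were higher. Of 13 amacrine markers 9 and of 13 Müller glia markers 8 were higher in ATF3 as well (5 Müller markers without CEBPG replicate 8, and 4 amacrine markers without CEBPG replicates 6 and 8 together), and 1 Müller marker was lower. All 8 counted lymphocyte genes and 3 of 10 microglia genes were lower in ATF3. Of 15 ganglion cell markers 4 were higher and 4 lower, or 2 and 2 without CEBPG replicates 6 and 8 together. Kcnk1 (0.87), Kcnk3 (1.37), Kcnb2 (1.02) and Kcnc4 (0.96) were other genes higher in ATF3, and the 2 lower ones were Kcnn4 (-2.57, SE 0.42, adjusted p = 0.0001) and Kcnk5 (-3.42, SE 0.76, adjusted p = 0.00306). The part of these cells in the differences was not tested.

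Between CEBPG and CHOP knockouts 5 channel genes were higher and 38 lower in CEBPG, with 26.7% of all genes passing, 13.5% higher and 13.2% lower. The median was -0.54, beside -0.03 for all genes. The Kv3 genes Kcnc1 (-0.76), Kcnc2 (-0.78) and Kcnc4 (-1.21, SE 0.24, adjusted p = 0.000724) were lower in CEBPG, and so were Hcn2 and Hcn4 (-0.71 and -1.46). Kcnk1 (-1.11, SE 0.14, adjusted p = 4.61e-06), Cacna1a (-0.71), Cacng5 (-0.88), Cacna2d3 (-0.89) and Kcnip3 (-0.60) were lower as well, and each of these calls held with any 1 library left out. Without CEBPG replicates 6 and 8 together, the calls of Kcnc2 and Hcn2 were lost (adjusted p of 0.0836 and 0.119). Of 13 amacrine markers 10 were lower in CEBPG, of 14 rod markers 13, and of 37 channel partners 17, with 1 partner higher. Other lists were mixed: of 15 ganglion cell markers 2 were higher and 5 lower, of 13 Müller glia markers 3 and 7, and of 10 cone markers 1 and 5. Without CEBPG replicate 8, 4 Müller markers were lower and 0 cone markers higher. The part of these cells in the channel differences was not tested.

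The 5 genes higher in CEBPG than in CHOP were Kcnn4 (2.19, SE 0.41, adjusted p = 0.000337), Kcna3 (1.01, SE 0.24, adjusted p = 0.00335), Kcnj8 (3.35, SE 0.95, adjusted p = 0.0106), Kcnk5 (2.27, SE 0.73, adjusted p = 0.0269) and Kcng3, which was at 0 in the CHOP libraries and at least 21.7-fold higher in CEBPG over 3 reads. All 8 counted lymphocyte genes and 8 of 10 microglia genes were higher in CEBPG too. The Kcnk5 call was lost without CEBPG replicate 6 or CHOP replicate 1, 2, 3 or 5 (adjusted p of 0.0522 to 0.0821), and the Kcng3 call without CEBPG replicate 9 or any CHOP library (0.0502 to 0.0674). Without CEBPG replicate 8, Kcng3 did not pass the filter on low counts and was not tested. Without CEBPG replicates 6 and 8 together, Kcna3, Kcnj8, Kcnk5 and Kcng3 were all lost (0.0598 to 0.114). The count higher was 3 without CHOP replicate 2, 3 or 5 and 2 without CEBPG replicates 6 and 8, where 31 genes were lower.

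**Figure D5:**
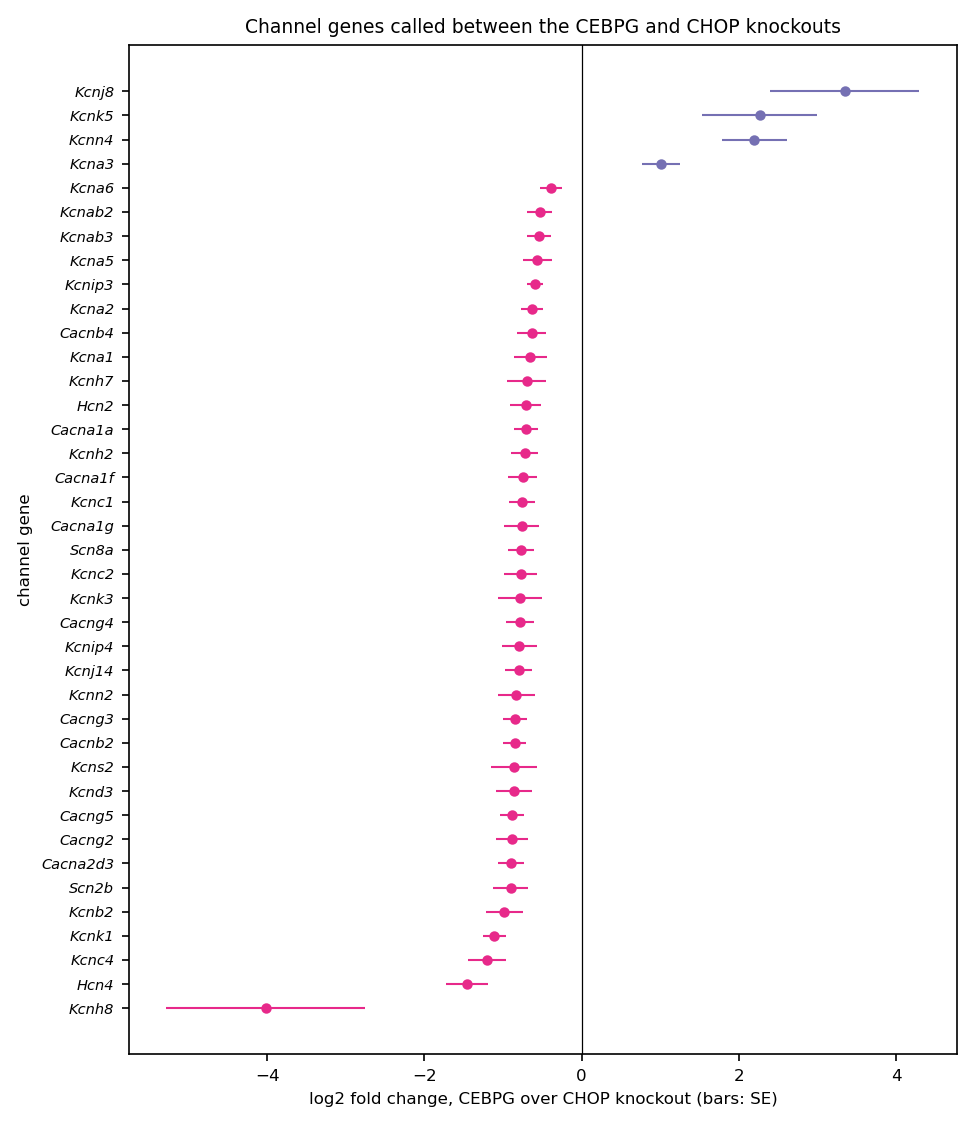
Log2 fold change of CEBPG over CHOP knockouts (horizontal axis, bars are standard errors) for channel genes (vertical axis) that passed the edgeR test and had reads in both groups. Genes not reported here are not drawn. Kcnn4, Kcna3, Kcnj8 and Kcnk5 lie to the right of 0 and the other genes drawn to the left.

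The authors' deposited table of fold changes was set beside these results. It holds 126 of the channel genes and gives an FDR below 0.05 to 41 (ATF3), 20 (ATF4), 58 (CEBPG) and 43 (CHOP) of them, beside 7.99%, 5.77%, 22.1% and 7.30% of all its genes. Of those, 39, 18, 51 and 42 also passed here in the same direction. The authors' deposited table gives the opposite direction to 1 gene that passed in both, Kcnk1 in ATF4 (-1.12 there and 1.21 here). Genes that passed only here include some with the other sign there. Among them are Kcng4 (-1.72), Kcnj8 (-0.41) and Kcnma1 (-0.008) in ATF3 and Kcnk13 (-0.30) in CEBPG, which rose here. Another is Kcnh5 (0.28) in ATF4, which fell here. Hcn4, which rose here in ATF3 and CHOP, has 0.22 and 0.17 there (FDR of 0.894 and 0.942). It gives Kcnj14 an FDR of 0.197 in ATF3 and 0.463 in CHOP, with log fold changes of -1.97 and -1.47. Cacna1f has an FDR of 0.0279 or less there in each knockout. The FDR is above 0.05 for Kcnv2 (0.0613) and Cacnb2 (0.206) in ATF3 and for both in CHOP (0.326 and 0.368). The same holds for Cacna2d4 (0.058) and Kcne2 (0.595) in ATF4. The log fold changes of these 4 genes are below 0 there too.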

How the data were processed

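RNA of sorted cells was amplified with SMART-Seq v4, per the labels' protocols. STAR, Picard, HTSeq and edgeR and the mm10 build are named in the submitters' processing notes. The deposited gene counts of the authors are whole, unnormalised reads per gene, and the counting strand was not given in the sources used here, so overlapping and antisense entries (Kcnd3os, Kcnmb4os1, Kcnq1ot1) are uncertain. The authors' deposited table gives log2-scale fold changes and p-values with FDR, and the log base is assumed.

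Counts of 20 libraries entered 1 edgeR 4.0.16 quasi-likelihood fit (TMM factors, filterByExpr with a minimum count of 10, Benjamini-Hochberg adjustment over 16797 genes, threshold 0.05). The fit was run on simulated data with few changed genes and no difference between batches, unlike the comparisons with control here. CPM use TMM factors. CPM per kilobase use GENCODE vM21 exon lengths. At a group with 0 reads, folds are bounds against 3 reads summed over the group. 1 library with conflicting labels entered no group, and 42 columns of the deposited sample sheet were not used. Results for some channel genes are not reported here, though counts over all channel genes include them. The text names up to 3 called genes per class, direction and comparison by adjusted p, the 2 highest genes per class, calls between knockouts with a mean of at least 1 CPM, members of the 4 channel lists, genes at 0 throughout a group and up to 3 channel partners per direction. The genes and lists were chosen with earlier results of these data known. Alternatives were other scalings, no filter, DESeq2 1.42.0, 2-group fits, a replicate block and leaving out libraries.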

Additional observations from a re-analysis of the deposited data

Results flagged for a closer look

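Dixon's test for a library far from the rest of its group was run on 119 groups of 4 or 5 libraries over 30 channel genes, and 15 groups passed, where chance gives about 1 in 20. In the CEBPG knockouts the libraries standing apart were replicate 8 for Kcnv2 at 73.5 CPM, replicate 10 for Cacnb2 at 28.8 CPM and Kcnk1 at 76.0 CPM, replicate 6 for Kcna5 at 56.9 CPM and Scn2a1 at 45.5 CPM, and replicate 9 for Scn2b at 14.4 CPM. In the CHOP knockouts they were replicate 1 for Kcnj14 at 51.0 CPM, replicate 5 for Cacnb2 at 78.2 CPM and replicate 3 for Kcnn4 at 16.7 CPM. In the ATF3 knockouts they were replicate 5 for Cacna1f at 104 CPM and Kcna3 at 33.9 CPM, replicate 6 for Kcnc2 at 114 CPM and replicate 9 for Scn2a1 at 32.8 CPM. In the controls, replicate 5 stood apart for Scn8a at 59.3 CPM and Hcn4 at 4.21 CPM.

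The library in no group, with 33665965 reads, is called a CHOP knockout in 1 label and non-targeting in the sample sheet. In it, 37 channel genes were above all 4 controls, 34 below all 4 and 53 within their range.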

How the results depend on the processing

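Of 335 calls examined over 88 channel genes, 190 held in each alternative run, and no value reversed. Calls lost were 4 of 334 with DESeq2, 6 with RLE factors, 3 with upper-quartile factors, 0 with no filter, 32 of 329 with 2-group fits, 273 of 2785 over fits without 1 library, and 35 of 131 without CEBPG replicates 6 and 8, a setting chosen after seeing the data. Scalings moved the median of all genes by under 0.1. Without 1 library, higher and lower counts were 53 to 59 and 9 to 11 (ATF3), 39 to 55 and 8 to 11 (ATF4), 42 to 47 and 12 to 16 (CEBPG) and 55 to 60 and 8 to 11 (CHOP) against control. They were 1 to 2 and 2 to 4 for ATF3 against CHOP, 22 to 30 and 2 to 3 for ATF3 against CEBPG, and 3 to 6 and 32 to 43 for CEBPG against CHOP. DESeq2 called 4 higher in ATF3 than in CHOP, and the fit of those 2 groups alone 8 higher and 17 lower. Without CEBPG replicates 6 and 8, 2 were higher in CEBPG than in CHOP. A photoreceptor list of 6 channel genes was also taken out without a new fit, again chosen after seeing the data. The lower counts against control were then 5, 5, 9 and 5 for ATF3, ATF4, CEBPG and CHOP. All 6 genes had fallen in each of these comparisons, so the counts follow from the removal alone. The cause of the changes between settings was not tested. Reads of low genes limit the calls.

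The replicate numbers are not known to pair the libraries. Over 12 same-number pairs the correlation of deviations from the group mean was -0.0476 to 0.0264. Some of these pairs cross batches, so the correlations do not decide whether any libraries are paired. With the number as a replicate block, 126 of 335 calls were lost, 21 channel genes rose in ATF4 against control, 0 were higher and 0 lower in ATF3 against CHOP, and 0 higher and 1 lower in CEBPG against CHOP.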

Other observations

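In the library in no group, Kcnj14 was at 44.7 CPM, Kcna1 was at 8.73 CPM and Kcnc2 at 7.28 CPM. Kcng4 was at 214 CPM, Cacna2d4 at 304 CPM and Kcnj8 at 23.2 CPM. These are the values of 1 library and enter no comparison.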
